A study of Mus musculus with 4 samples.

Results

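The clustered protocadherins are 57 protein-coding genes on mouse chromosome 18 whose symbols start with Pcdha, Pcdhb or Pcdhg, chosen by symbol and by position between 36.9 and 37.9 Mb (mm10), out of 21631 protein-coding genes on the autosomes and the X chromosome. They comprise 14 genes of the alpha array, 22 of the beta array and 21 of the gamma array, the last made up of 12 gamma A, 6 gamma B and 3 gamma C genes. Peaks were taken over the whole interval and 200 kb on each side, which held 102 CTCF peaks, 94 RAD21 peaks and 35 H3K4me3 peaks.

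The peaks came from ChIP-exo, in which an exonuclease trims immunoprecipitated DNA up to the crosslinked protein, in Bruce-4 cells. Bruce-4 is an embryonic stem cell line of genotype C57BL/6J, kept here in serum/2i/LIF medium on gelatin. All 4 libraries (1 for H3K4me3, 2 for CTCF, 1 for RAD21) came from this line, with 10000000 cells per replicate crosslinked in 1% formaldehyde for 10 min, and the labels name no treatment. Each mark was represented by a single list, so no value below has a replicate, and intervals given are Wilson 95% intervals for counting error only. The CTCF list is named as a union, but whether it joins both CTCF libraries is not given in the sources used here. Sequencing depth and peak heights were unknown, and a gene without a peak is a gene where none was called.

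Clustered protocadherins are cell surface adhesion proteins, known for giving each neuron its own combination of isoforms through random choice among many alternative promoters. In the alpha and gamma arrays every variable exon has its own promoter and is spliced to constant exons that the whole array shares, while each beta gene consists of a single coding exon. CTCF, the DNA-binding protein at which loop-extruding cohesin stops, is known to bind most of these promoters, and RAD21 is a subunit of the cohesin ring. Loops between promoters and distal enhancers are part of promoter choice in neurons. H3K4me3 is a histone mark of active and of poised promoters. A conserved promoter element, called CSE, is known to overlap the CTCF site and to be lacking at Pcdhac2, Pcdhb1, Pcdhgc4 and Pcdhgc5.

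H3K4me3 was found at most of the stem cell markers of the labelled cell type and at part of the neuronal ones. Of 12 embryonic stem cell genes 11 had H3K4me3 within 1 kb of an annotated end, with the widest peaks at Nanog (2792 bp), Fgf4 (2686 bp) and Pou5f1 (2019 bp), and none at Esrrb. Of 10 neuronal genes 6 had it, led by Nefl (1387 bp), Stmn2 (790 bp) and Syn1 (693 bp), and of 10 fibroblast genes 2 had it, Fbn1 (1081 bp) and Thy1 (432 bp). Among all protein-coding genes the share was 57.2%.

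At the annotated ends of the members, RAD21 was called at 57 of 57 genes, CTCF at 53 and H3K4me3 at 19, within 1 kb of either end. The corresponding shares of all protein-coding genes were 38.6% for RAD21, 26.5% for CTCF and 57.2% for H3K4me3. These counts partly reflect shared ends. The gamma genes all finish between 37841863 and 37841873, and there a 117 bp CTCF peak (chromosome 18, 37841432 to 37841548) lay inside a 420 bp RAD21 peak (37841403 to 37841822). Of the 14 alpha genes, 13 finish between 37187657 and 37187663 and Pcdha6 at 37188897, and no peak of any list came within 1 kb of these ends. Because the shared end is the constant-exon side, the lower coordinate of each member was taken as its own start, and the same direction is known for the beta genes.

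The starts differ from member to member, although the read-through genes Gm37013, Gm38666 and Gm38667, which are no members, begin close to Pcdha4, Pcdha6 and Pcdha7. The member starts carried CTCF and cohesin almost throughout the 3 arrays. RAD21 came within 1 kb of 55 of 57 starts (96.5%, 95% interval 88.1 to 99.0%), and CTCF of 51 (89.5%, 78.9 to 95.1%). Across 17274 protein-coding genes with a known strand, 31.8% had RAD21 and 19.9% had CTCF in the same window. H3K4me3 reached 19 of 57 starts (33.3%, 22.5 to 46.3%), against 55.7% of the starts genome-wide. By array, H3K4me3 was at 16 of 21 gamma starts (76.2%, 54.9 to 89.4%), 3 of 14 alpha starts and 0 of 22 beta starts. The members as a set lay above the genome-wide share for CTCF and RAD21 and below it for H3K4me3. In the gamma array the H3K4me3 share was higher than genome-wide, but its interval included 55.7%. With only peaks above the median length of the list, 1 of the 18 H3K4me3 peaks of the gamma array was left.

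**Figure D1:**
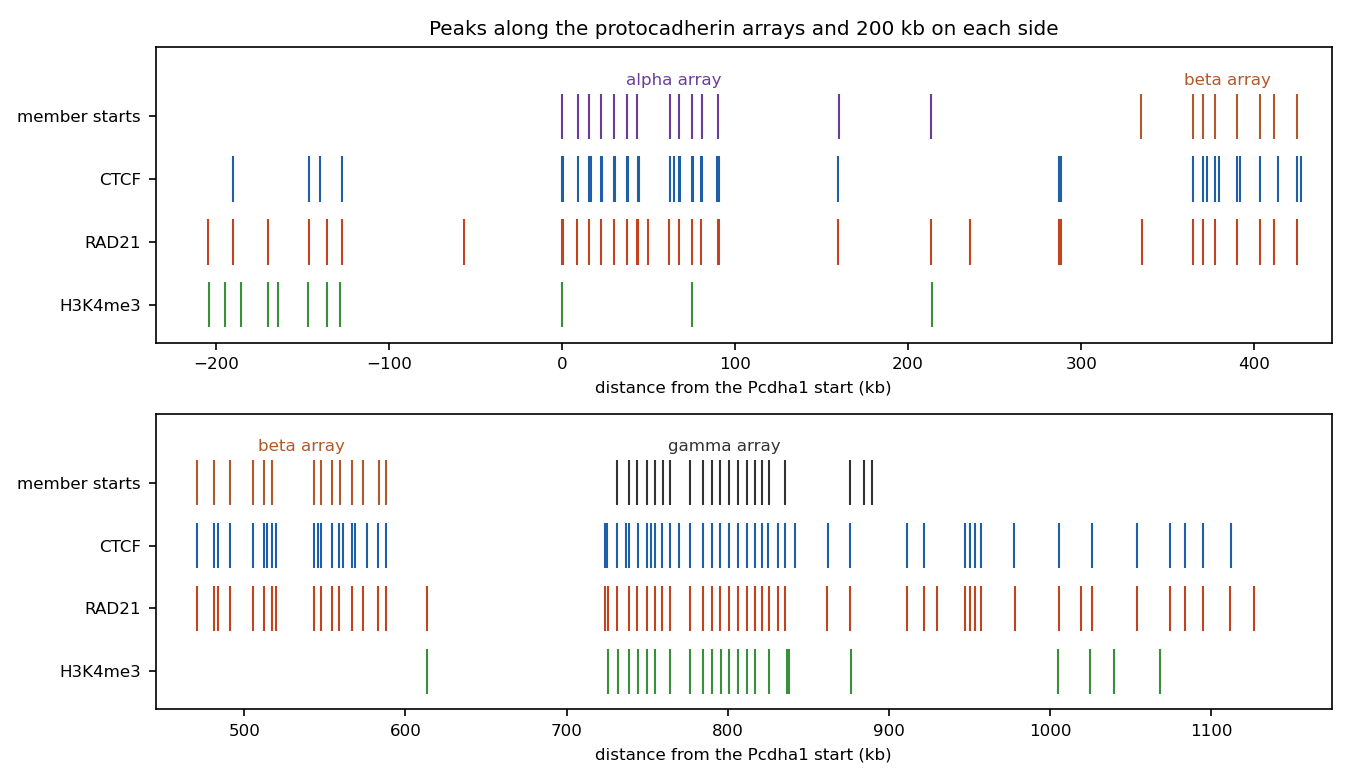
Positions of member starts and of CTCF, RAD21 and H3K4me3 peaks (1 tick a midpoint) along the chromosome, as distance from the Pcdha1 start in kb, in 2 stretches. CTCF and RAD21 ticks follow the member starts in all 3 arrays, whereas H3K4me3 ticks follow them in the gamma array, number 3 in the alpha array and 0 in the beta array.

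A tighter window of 250 bp, chosen after the offsets had been seen, separated peaks at the start itself from peaks inside the gene. In it, 31 members had CTCF with RAD21 and no H3K4me3, and 18 had all 3 marks. RAD21 without CTCF was found at 6 starts: Pcdha7, Pcdha8, Pcdhac2, Pcdhb1, Pcdhb7 and Pcdhb20. Pcdhgc4 and Pcdhgc5 had no peak of any list. No member start had CTCF without RAD21. The number of members with each mark in this window was 49 for CTCF, 55 for RAD21 and 19 for H3K4me3, against 11.5%, 21.5% and 50.2% of gene starts genome-wide. By combination, 8.59% of those starts had CTCF and RAD21 within 250 bp, with or without H3K4me3. The counterpart among members is the 49 with CTCF, all of which had RAD21. Of the 1483 gene starts with CTCF and RAD21, 1222 also had H3K4me3, against 18 of those 49 members. Starts with CTCF and RAD21 but no H3K4me3 were thus the smaller part genome-wide and the larger part among members. All 3 marks were at 7.07% of gene starts and RAD21 without CTCF at 12.9%. The 6 of 57 members with RAD21 without CTCF were close to that last share and not above it. Of 1986 gene starts with CTCF genome-wide, 1483 also had RAD21, so CTCF without RAD21 did occur there, unlike at the member starts.

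The peaks sat close to the annotated start and mostly just before it. For the 49 starts with CTCF within 250 bp, the CTCF midpoint lay a median of 45 bp before the start, in a range from 207 bp before (Pcdha11) to 320 bp after it (Pcdhga12), and 41 of 49 lay before. The peak covered the start base itself at 29 of these 49 genes. For the 55 starts with RAD21 the median was likewise 45 bp before, from 190 bp before (Pcdhb13) to 402 bp after (Pcdhga12), and 38 of 55 peaks covered the start base. Pcdhga12 stood apart from the other gamma genes. Its CTCF and RAD21 peaks began past the annotated start, and its nearest H3K4me3 midpoint was 1825 bp after it. The Pcdhga12 peaks were the last to fall inside the 250 bp window, at 212 bp for CTCF and 208 bp for RAD21, and the nearest peaks left outside were a RAD21 peak of Pcdhga10 that began 368 bp after its start and the second CTCF peak of Pcdha12, which began 378 bp after its start.

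**Figure D2:**
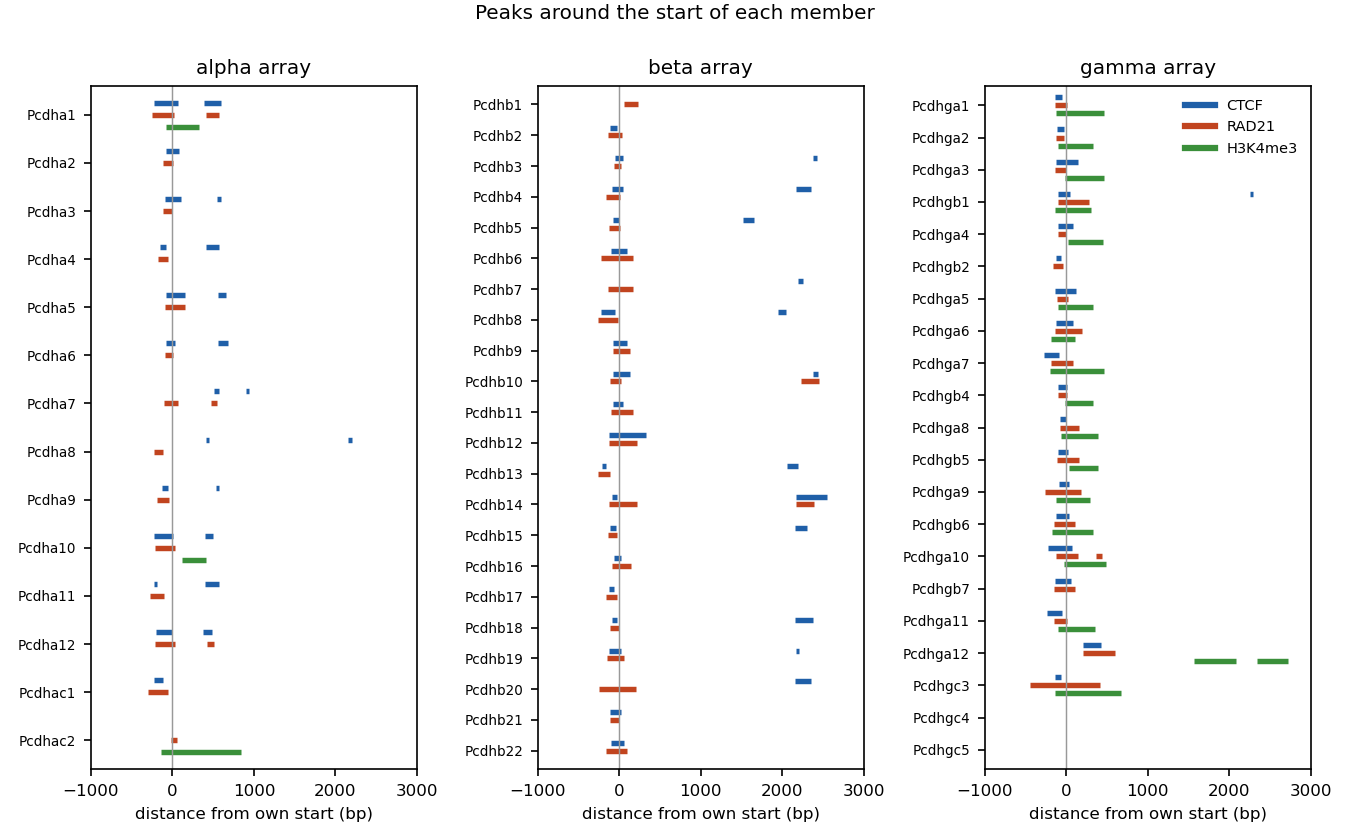
CTCF (blue), RAD21 (red) and H3K4me3 (green) peaks drawn to scale from 1000 bp before to 3000 bp after the start of each of the 57 members, in chromosomal order from top to bottom. RAD21 peaks cover the start base at 38 of 55 starts. Inside the gene, 11 of 14 alpha genes have CTCF peaks between 431 and 2184 bp from the start, and 9 of these also have CTCF at the start. Of the beta genes, 12 of 22 have a CTCF peak between 1586 and 2411 bp, and 10 of these also have CTCF at the start.

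In the alpha array, most genes had a second CTCF peak inside the gene. The array, from Pcdha1 at 36930285 to the end of Pcdha6 at 37188897, held 24 CTCF peaks, of which 11 lay at starts and 13 inside genes. At Pcdha1, the outermost member, a 293 bp CTCF peak lay 77 bp before the start and a 202 bp CTCF peak lay further in, from 36930676 to 36930877. At Pcdha12, a pair of 202 and 107 bp lay from 37020030 to 37020231 and from 37020608 to 37020714. In the 9 alpha genes with both kinds of peak, the midpoints were 531 to 689 bp apart, with a median of 568 bp. Paired CTCF sites, in the promoter and in the variable exon, are a known feature of the alpha genes.

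The alpha genes without this pair differed in what was missing. Pcdha7 and Pcdha8 had RAD21 at the start (176 and 108 bp long) but CTCF only further in, at 543 and 435 bp from the start for the nearest peak. Pcdha2 and Pcdhac1 had CTCF at the start, of 169 and 108 bp, and none further in. Pcdhac2, a C-type gene known to be expressed without random choice and lacking the CSE, had no CTCF peak nearer than 53716 bp. It carried the shortest RAD21 peak length in the list, 71 bp, together with the widest H3K4me3 peak of any member, 984 bp (37143542 to 37144525). The other H3K4me3 peaks of the alpha array lay at Pcdha1 (401 bp) and Pcdha10 (294 bp, the shortest length in the list).

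In the beta array CTCF and RAD21 marked nearly every start and H3K4me3 none. From Pcdhb1 at 37264998 to the end of Pcdhb22 at 37521419 there were 31 CTCF and 24 RAD21 peaks, and H3K4me3 was called at 0 of 22 genes (upper 95% bound 14.9%). The 22 genes lay within a stretch of 399 kb, from 37144526 to 37543642, that had no H3K4me3 peak at all, the longest such stretch of the region described. RAD21 was at 22 of 22 starts. CTCF was at 19, the exceptions being Pcdhb1, Pcdhb7 and Pcdhb20.

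The 3 starts without CTCF were of different kinds. Pcdhb1, which lacks the CSE, had no CTCF peak nearer than 29769 bp and a 168 bp RAD21 peak centred 147 bp after its start. Pcdhb7 and Pcdhb20 had long RAD21 peaks across the start, of 314 and 458 bp, the 458 bp peak being the longest of the array, and a CTCF peak inside the gene, 2227 and 2253 bp from the start. Both starts thus had cohesin with the nearest CTCF call deep inside the gene.

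Inside the beta genes, 12 of 22 had a further CTCF peak and the other 10 had none. The offsets were 1586 bp at Pcdhb5 and up to 2411 bp at Pcdhb10, with a median of 2243.5 bp, so the beta sites lay deeper in the gene than the alpha sites, whose median offset was 543 bp. In the 10 beta genes with CTCF at both places the midpoints were 1632 to 2419 bp apart. Pcdhb12 carried the longest CTCF peak of the region, 450 bp (37435497 to 37435946), across its start and had none further in. Pcdhb9, which follows the widest gap between beta starts (45.6 kb after Pcdhb8), also had CTCF at its start only, 180 bp long.

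The gamma array combined all 3 marks. From Pcdhga1 at 37661775 to 37841873 it held 25 CTCF, 23 RAD21 and 18 H3K4me3 peaks, and the CTCF peak at the Pcdhga1 start (37661635 to 37661729) lay just before the array's first base. All 3 marks were within 250 bp of 16 of 21 gamma starts, against 2 of 14 in the alpha array and 0 of 22 in the beta array. By subfamily, H3K4me3 was at 11 of 12 gamma A starts, 4 of 6 gamma B starts and 1 of 3 gamma C starts. The members without it were Pcdhga12, Pcdhgb2, Pcdhgb7, Pcdhgc4 and Pcdhgc5. CTCF and RAD21 were at 12 of 12 gamma A and 6 of 6 gamma B starts, Pcdhgb2 and Pcdhgb7 included.

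At the gamma starts H3K4me3 midpoints mostly lay after CTCF midpoints, although the H3K4me3 peaks themselves overlapped CTCF at 15 of 16 starts, all but Pcdhgb5. The H3K4me3 midpoint was a median of 141 bp after the start and 208 bp past the CTCF midpoint, and it was past it at 15 of 16 starts. At Pcdhga6, the exception, it was 12 bp before. These peaks were short. Their median was 450.5 bp (294 to 801 bp), against 682 bp for the whole list. The widest was that of Pcdhgc3 (801 bp), which also had the longest RAD21 peak of the region, 862 bp (37805961 to 37806822), beside a CTCF peak of only 68 bp. The other C-type genes, Pcdhgc4 and Pcdhgc5, were the only members without any peak at the start, and their nearest CTCF midpoint was that same Pcdhgc3 peak, 8767 and 13234 bp before.

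Only 1 of 21 gamma genes, Pcdhgb1, had a CTCF peak 250 to 3000 bp inside the gene (47 bp long, 2274 bp from the start), against 11 of 14 alpha and 12 of 22 beta genes. The share of all protein-coding genes with CTCF in that stretch was not counted, so these values compare the arrays with each other only. The 4 genes described as lacking the CSE had CTCF at 0 of 4 starts, and RAD21 at 2, Pcdhac2 and Pcdhb1. Of the 53 other members 49 had CTCF within 250 bp.

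CTCF peaks at starts and CTCF peaks inside the genes differed in whether RAD21 was called with them. All 49 at starts overlapped RAD21 by at least 1 bp (95% interval 92.7 to 100%). Of 26 inside genes 5 did (19.2%, 8.51 to 37.9%): those of Pcdha1, Pcdha7, Pcdha12, Pcdhb10 and Pcdhb14. Across the genome 81.9% of CTCF peaks overlapped RAD21. By array, RAD21 was at 3 of 13 such peaks in alpha genes, 2 of 12 in beta genes and 0 of 1 in gamma genes.

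Peak length did not divide the sets in the same way. The peaks inside genes had a median of 102 bp (37 to 375 bp) and those at starts 141 bp (42 to 450 bp). Among peaks longer than 104 bp, the median of the whole list, RAD21 was at 3 of 12 inside genes (25%, 8.89 to 53.2%) and at 33 of 33 at starts, while genome-wide 93.0% of CTCF peaks of that length overlapped RAD21 and 7.01% did not. Long peaks without RAD21 included the 229 bp peak in Pcdhb18 (37491617 to 37491845), the 195 bp peak in Pcdhb20 and the 169 bp peak in Pcdha11. Members of a tandem family share sequence, and how reads that map to several places were treated is not given in the sources used here. Its part in which sites were called was not tested.

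**Figure D3:**
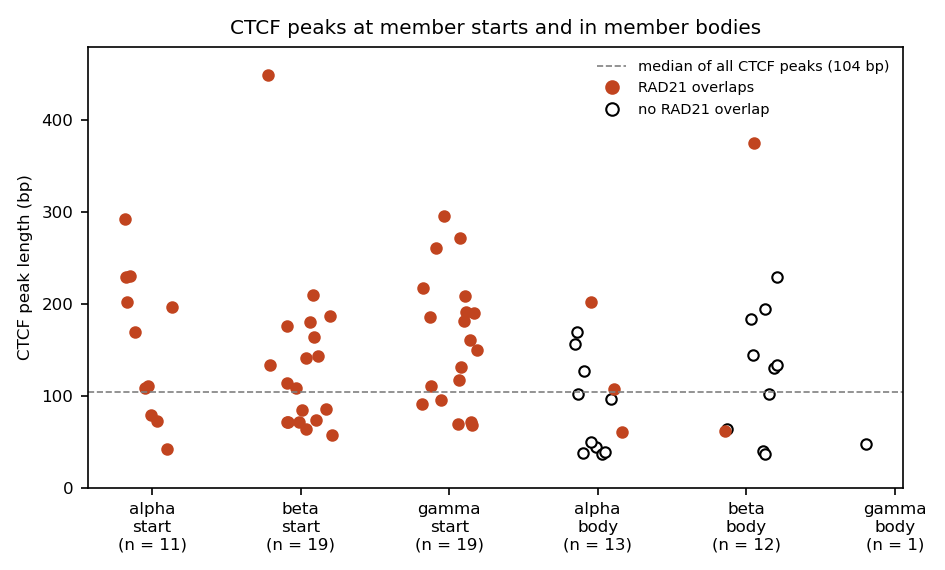
Length in bp of each CTCF peak at a member start (left 3 columns) or 250 to 3000 bp inside a member (right 3 columns), by array, filled red where RAD21 overlaps and open where it does not. The dashed line is the median of all CTCF peaks, 104 bp. All 49 start peaks are filled, and 21 of 26 peaks inside genes are open, 9 of them above the line.

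RAD21 and CTCF midpoints at the starts were close together and shifted a little differently by array. The RAD21 midpoint lay a median of 9 bp before the CTCF midpoint in the alpha array and 3 bp before it in the beta array, but 31 bp after it in the gamma array. It was on the side of higher coordinates at 3 of 11 alpha, 7 of 19 beta and 12 of 19 gamma starts, so both directions occurred in each array. The orientation of the CTCF motif was not analysed here.

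Spacing was measured for gene starts and for CTCF peaks. Gene starts were a median of 7.44 kb apart in the alpha array, 7.84 kb in the beta array and 5.37 kb in the gamma array. CTCF midpoints at starts were 7.58, 8.62 and 5.41 kb apart in the same order. They follow the genes by construction, since only peaks within 250 bp of a start were counted. With all CTCF peaks of an array counted, the medians were 3.14 kb in the alpha array, 4.97 kb in the beta array and 5.41 kb in the gamma array. Genome-wide the median was 17.1 kb. The alpha median mixes short steps within genes, such as the 531 to 689 bp of the pairs, with longer steps between genes. It is therefore not a typical step. The longest distance between successive CTCF midpoints of the alpha array, 69.3 kb, ran from Pcdha12 to Pcdhac1, as did the longest step between alpha starts (69.9 kb). Past the Pcdhac1 peak there was no CTCF peak for 127 kb (37090017 to 37217455), through the rest of the alpha array and into the gap after it.

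As a density, CTCF reached 9.28 peaks per 100 kb in the alpha array, 12.1 in the beta array and 13.9 in the gamma array, which was 4.69, 6.10 and 7.01 times the 1.98 per 100 kb of the autosomes and X. RAD21 had 7.35, 9.36 and 12.8 peaks per 100 kb, or 2.53, 3.22 and 4.40 times the genome-wide 2.91. H3K4me3 was denser than genome-wide in the gamma array (9.99 against 0.827 per 100 kb, 12.1 times) and in the alpha array (1.16, 1.40 times). Of the 10 windows of 100 kb between 36.9 and 37.9 Mb, 5 had at least 10 CTCF peaks, as did 1.59% of all such windows. At least 10 RAD21 peaks were found in 3 of the 10, against 2.41%, and at least 7 H3K4me3 peaks in 2, against 0.799%. Windows with at least 15 CTCF peaks numbered 16 in the genome (0.0624%), and 3 of them were here.

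Other gene clusters gave a scale for these densities. The Hox clusters, which encode homeobox regulators of body position, had 4.32 (Hoxc) to 8.05 (Hoxb) CTCF peaks and 6.63 (Hoxa) to 9.29 (Hoxd) RAD21 peaks per 100 kb. Their H3K4me3 densities of 5.69 to 11.2 bracketed that of the gamma array, with peak medians of 622 to 1252.5 bp. The immunoglobulin heavy chain V array, another large tandem array, had 1.56 CTCF, 2.83 RAD21 and 0.123 H3K4me3 peaks per 100 kb.

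**Figure D4:**
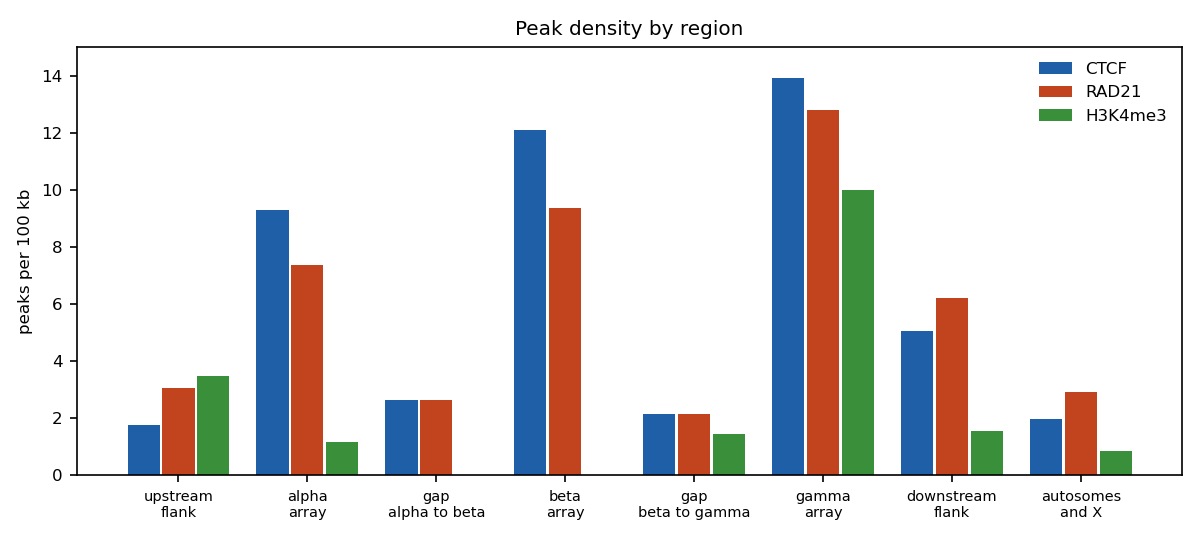
Peaks per 100 kb of CTCF (blue), RAD21 (red) and H3K4me3 (green) in the 3 arrays, the gaps between them, the flanks, and the autosomes and X together. CTCF and RAD21 are highest in the 3 arrays and highest of all in the gamma array (13.9 and 12.8), and H3K4me3 is absent from the beta array and the gap before it.

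Between the alpha and beta arrays, a gap of 76.1 kb held a close pair of sites and nothing else. The CTCF peaks, of 87 and 97 bp (37217456 to 37217542 and 37218384 to 37218480), lay 933 bp apart, 28.6 and 29.5 kb past the end of the alpha array. Each overlapped a longer RAD21 peak, of 257 and 313 bp (37217269 to 37217525 and 37218231 to 37218543). At both, the RAD21 midpoint lay on the alpha side of the CTCF midpoint. The alpha enhancer HS5-1, known to hold a pair of CTCF sites, lies downstream of the alpha constant exons. The files carry no enhancer annotation, and no peak was assigned to it. Within the alpha array, past Pcdhac2, there was also a 71 bp RAD21 peak without CTCF, 22.9 kb before the array's end (37165933 to 37166003).

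The gap between the beta and gamma arrays, 140.4 kb, was sparse until its last 10 kb. The longest CTCF-free stretch of the region, 135 kb (37518412 to 37653854), began inside Pcdhb22 and covered most of this gap. At 37543643 to 37544142, 22.5 kb past Pcdhb22, a 500 bp H3K4me3 peak overlapped a 184 bp RAD21 peak without CTCF. Then, 6.2 kb before Pcdhga1, a 383 bp CTCF peak, a 522 bp RAD21 peak and a 676 bp H3K4me3 peak lay together between 37655369 and 37656183, away from any member's start. Slc25a2 (a mitochondrial ornithine carrier) and Taf7 (a subunit of TFIID), the protein-coding genes of this gap, had no peak of any list within 1 kb of an end, and the nearest H3K4me3 peak to Taf7 was 11.3 kb away.

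Downstream of the gamma array, CTCF and RAD21 sites were frequent through Diaph1, which encodes a formin that nucleates actin. The 258.1 kb flank held 13 CTCF peaks (5.04 per 100 kb, 2.54 times the genome) and 16 RAD21 peaks (6.20 per 100 kb). Of these, 7 CTCF and 8 RAD21 peaks overlapped Diaph1 (37843601 to 37935622), the last of each list running past its end at 37935622. The CTCF peaks began 10.5 kb past the gamma end with a 272 bp peak (37852229 to 37852500). Between 35.7 and 45.3 kb past it 4 followed in close order, of 294, 97, 227 and 50 bp, and each overlapped RAD21. A RAD21 peak of 249 bp at 37860122 to 37860370 had no CTCF. Enhancers of the beta and gamma genes are known to lie downstream of the gamma array. RAD21 was at 12 of 13 CTCF peaks in this flank (92.3%, 66.7 to 98.6%), and the median CTCF length was 223 bp, against 104 bp for the whole list. H3K4me3 was at an end of each of the 5 protein-coding genes here, Diaph1, Hdac3, Rell2, Fchsd1 and Arap3.

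Upstream of Pcdha1, the counts depended on how far the flank reached. The 230.3 kb flank held 8 H3K4me3 peaks (3.47 per 100 kb, 4.20 times the genome), 7 RAD21 and 4 CTCF peaks (1.74 per 100 kb, 0.877 times the genome). With a flank of 100 kb before the interval in place of 200 kb, the densities were 0.768 for H3K4me3, 1.54 for RAD21 and 0.768 for CTCF per 100 kb, so H3K4me3 was no longer the most frequent. The H3K4me3 peaks all lay between 128.2 and 204.3 kb before Pcdha1, at the closely packed genes from Cd14 to Zmat2 and at Vaultrc5. The last CTCF peak before the arrays, 190 bp with RAD21 (36802963 to 36803152), lay at Vaultrc5, 127.2 kb before Pcdha1. Between it and the Pcdha1 promoter there was no CTCF peak, and RAD21 was called once, with 71 bp.

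By region, RAD21 overlapped CTCF at 14 of 19 peaks in the alpha array, 21 of 24 in the beta array and 21 of 23 in the gamma array. In the 3 arrays and the gaps together this was 60 of 71 (84.5%, 74.3 to 91.1%), against 55.9% genome-wide. For CTCF peaks the share with RAD21 was below the genome-wide one. RAD21 was at 14 of 24 CTCF peaks in the alpha array, 21 of 31 in the beta array and 20 of 25 in the gamma array, together 60 of 85 with the gaps (70.6%, 60.2 to 79.2%), against 81.9% genome-wide. The CTCF peaks without RAD21 in the alpha and beta arrays, 10 in each, were those inside genes.

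Protocadherins outside the clusters were also examined, by the same rule for annotated ends. Of 13 such genes 4 had H3K4me3, 2 had CTCF and 2 had RAD21 at an end, against 57.2%, 26.5% and 38.6% of all protein-coding genes. Pcdh19, mutated in a form of epilepsy in humans, had the widest H3K4me3 peak of these (1559 bp), followed by Pcdh17 (631 bp) and Cdhr1 (477 bp), and these 3 had neither CTCF nor RAD21 there. Pcdh1 was the only one with all 3 marks (426, 246 and 236 bp for H3K4me3, CTCF and RAD21). Of 11 genes for CTCF, cohesin and chromatin regulators known to act on the clusters, 9 had H3K4me3, 4 CTCF and 5 RAD21, with H3K4me3 widest at Smc3 (1428 bp), Dnmt3b (1286 bp) and Ctcf (1262 bp), and none at Rad21 or Nipbl.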

How the data were processed

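Per the submitters' processing notes, which give no roles, MACS2 was among the tools, along with bedtools 2.30.0, Bowtie2 2.4.5 and Picard 2.27.4, and mm10 was the build. What settings, threshold or control library the peak calling used is not given in those sources. The other kind of value here is a position: the authors deposited, in the lists used, a chromosome, a start and an end for each peak, with no score or height. The CTCF list, recorded under the second CTCF library, is called a union, and the CTCF replicates were not compared. Peaks on the 19 autosomes and X were kept. Depth was unknown.

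Gene ends were those of RefSeq on assembly GRCm38.p6 (mm10 coordinates), whose chromosome 18 entries carried ends without strand, exons or sequence. Background starts used the 17274 protein-coding genes whose strand RefSeq promoters gave. Overlap meant at least 1 bp, and a peak was at an end or start within 1 kb. Peaks overlapping an array counted in it. Genome-wide density used the span from the first to the last gene or peak of each chromosome. Python 3.11.15, numpy 2.4.6, scipy 1.17.1 and matplotlib 3.10.9 were used. The genome-wide count of CTCF peaks overlapping RAD21 was checked with bedtools 2.31.1 and was equal (42360), and the overlap code was tested on simulated intervals. With 1 list a mark, no test between conditions was possible.

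All members could be named; values were printed for those lacking a peak, with the longest or shortest peaks, first or last in an array, with several CTCF peaks, or lacking the CSE, for flanking genes, and for up to 3 genes of each list. Pcdha2, Pcdhac1, Pcdhb9, the pseudogene Pcdhgb8 and Pcdh1, which is beyond the 3 of its list, were singled out after their values were seen. Members and lists were chosen with earlier results of these data known, and the 250 bp and 3000 bp limits after the offsets had been seen.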

Additional observations from a re-analysis of the deposited data

How the results depend on the processing

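Of 102 alternative values for 36 results, 71 stayed within the counting interval (shares) or within 1.5 times (counts and spacings) and 31 did not. No paired analysis was possible because only the CTCF libraries carry replicate numbers and each mark had a single list. Keeping only peaks above the median length of their list, which shortens each list by construction, accounted for most: at an end, H3K4me3 3.51%, CTCF 77.2% and RAD21 78.9% of members; at their own start, 3.51%, 61.4% and 63.2%. H3K4me3 peaks then numbered 1 in the alpha and 1 in the gamma array, CTCF peaks 13, 18 and 16 in the alpha, beta and gamma arrays, RAD21 peaks 9 and 14 in the alpha and gamma arrays, and members with more than 1 CTCF peak in their unit 5. Median CTCF spacing was then 7109 bp (alpha) and 9707 bp (beta), and RAD21 spacing 11474 and 13274 bp. With both lists so shortened, RAD21 was at 56.2% of CTCF peaks and CTCF at 61.4% of RAD21 peaks in the arrays and gaps. RAD21 was then at 50.0% of H3K4me3 peaks there (1 of 2) and at 69.7% of CTCF peaks at starts (23 of 33). With the full RAD21 list, an alternative chosen after seeing the data, the last 2 were 100% (2 of 2) and 100% (33 of 33). Counting each distinct end once gave 21.8%, 67.8% and 69.0% for H3K4me3, CTCF and RAD21, and peaks anywhere in the gene 57.9% for H3K4me3, since alpha and gamma genes span their neighbours. With flanks of 100 kb, the upstream flank had 0.768 H3K4me3, 0.768 CTCF and 1.54 RAD21 peaks per 100 kb and the downstream flank 2.53 H3K4me3. The share of CTCF peaks inside genes with RAD21 (19.2%) ran from 16.7% to 34.6%, the highest with RAD21 counted up to 500 bp away.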

Other observations

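Pcdhgb8, annotated as a transcribed pseudogene and so outside the 57 genes, had CTCF and RAD21 at its start: a 75 bp CTCF peak centred 149 bp before its start and a 139 bp RAD21 peak centred 141 bp before it, with no H3K4me3 at an end.

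In the gamma array 6 CTCF peaks lay neither at a member start nor within 3000 bp inside a member. They were the Pcdhgb8 peak, the peak at the shared gamma end, a 178 bp peak between Pcdhga12 and Pcdhgc3 (37772098 to 37772275) without RAD21, and 3 peaks of 39 to 48 bp, also without RAD21. In the alpha array a 106 bp RAD21 peak (36979825 to 36979930) lay between Pcdha7 and Pcdha8, inside the pseudogene Gm36858, with no CTCF.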
